A study of Drosophila melanogaster with 2 samples.

Results

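HLH3B is a fly transcription factor of the basic helix-loop-helix (bHLH) family, of the same type as vertebrate Tal1, and its binding was mapped in whole Drosophila melanogaster embryos aged 8 to 24 hours. The embryos came from a strain with an inserted HLH3B-eGFP fusion, and an anti-GFP antibody pulled down their chromatin, sonicated to fragments of 200 to 800 bp, for sequencing (ChIP-seq). There was 1 group with 2 biological replicates, and the control experiment named in the labels was not analysed here. The age is that of the source label, and a separate age field of both samples holds a value that does not match it. The labels do not give the promoter that drives the fusion. Whole embryos mix the cells that make HLH3B with those that do not.

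The sites described here are those that only the larger of the deposited series-level peak sets contains. They were chosen by readout: a peak of the pooled thresholded set on the arms 2L, 2R, 3L, 3R, 4 or X was a member when it overlapped no peak of the conservative set by 1 bp or more. Of 5814 pooled peaks, 5812 lay on these arms, 2044 of those were pooled-only sites and the other 3768 overlapped 1 of the 3846 conservative sites. Both sets hold peaks with an irreproducible discovery rate (IDR, which is low when the ranks of a peak repeat) under 0.01. The conservative set was drawn from a candidate list that compared the 2 replicates. The pooled set was drawn from another candidate list, for which the labels do not say what was compared. Coordinates are on assembly dm6.

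A bHLH protein binds DNA as a dimer, at a hexamer called the E-box, CANNTG. Tal1-type proteins pair with the widely expressed bHLH partner that flies call Daughterless, and in vertebrate blood cells they act in complexes with GATA and LIM-domain proteins. Peaks at open promoters are common in maps of many factors, so a peak alone does not show contact between this protein and an E-box.

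The summit base and the 50 bases on either side of it are printed for the 6 strongest printable pooled-only sites, because each of them was found in the list of 1 replicate alone. Each is named by the gene with the nearest annotated start, and the sequence is the plus strand of the Release 6 genome from RefSeq. Capitals mark matches, on either strand, to the 18 motifs counted at all sites.

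CG7841, chr3L:15508313-15508413: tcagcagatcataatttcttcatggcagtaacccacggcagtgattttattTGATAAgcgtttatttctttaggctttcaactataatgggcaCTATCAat
CG4702, chr3R:12121299-12121399: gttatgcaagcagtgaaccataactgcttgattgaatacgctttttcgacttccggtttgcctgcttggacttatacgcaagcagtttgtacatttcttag
CG32425, chr3L:20508259-20508359: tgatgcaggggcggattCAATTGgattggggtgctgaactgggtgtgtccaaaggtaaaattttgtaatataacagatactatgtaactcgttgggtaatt
zfh2, chr4:497861-497961: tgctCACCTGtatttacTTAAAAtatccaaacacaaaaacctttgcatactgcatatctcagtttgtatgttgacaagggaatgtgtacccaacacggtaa
Dys, chr3R:19460839-19460939: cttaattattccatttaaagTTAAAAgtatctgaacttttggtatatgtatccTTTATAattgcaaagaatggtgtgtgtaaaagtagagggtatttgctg
CG7668, chr3L:20002577-20002677: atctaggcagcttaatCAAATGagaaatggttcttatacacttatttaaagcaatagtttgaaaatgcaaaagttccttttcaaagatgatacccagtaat

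The window at CG7841 held the GATA motif (GATA with A or T before it and A or G after it) 2 times and no E-box of any class. The window at CG4702 held none of the 18 motifs. An E-box was found at CG32425 (CAATTG), at zfh2 (CACCTG) and at CG7668 (CAAATG), and the window at Dys held TATAAA and also TTAAAA.

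The range of base composition is shown by the windows of lowest and highest G+C among the 100 strongest printable sites, with capitals as above.

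CG32369, chr3L:7811034-7811134: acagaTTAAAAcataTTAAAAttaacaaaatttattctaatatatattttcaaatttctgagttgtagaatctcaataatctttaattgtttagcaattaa
CG7878, chr3R:8119606-8119706: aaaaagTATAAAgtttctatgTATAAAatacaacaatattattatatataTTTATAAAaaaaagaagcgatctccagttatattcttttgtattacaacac
omd, chr3R:13686681-13686781: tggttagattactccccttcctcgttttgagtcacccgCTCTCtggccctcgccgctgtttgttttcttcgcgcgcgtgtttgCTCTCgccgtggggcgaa
fkh, chr3R:28585463-28585563: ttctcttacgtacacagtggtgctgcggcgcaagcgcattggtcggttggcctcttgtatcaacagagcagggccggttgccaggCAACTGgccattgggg

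The windows at CG32369 and CG7878 had a G+C content of 16.8% and 18.8%, and those at omd and fkh had 58.4% and 59.4%. The window at fkh, which codes for the founding forkhead transcription factor, held the E-box CAACTG. The window at omd held GAGAG, which the GAGA factor Trl binds, on the minus strand.

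Pooled-only sites were mostly weak sites of the pooled set. Their signal, on the authors' scale, had a median of 71.4 with quartiles of 62.4 and 83.6 and a range of 2.15 to 492. The conservative sites had a median of 139, with quartiles of 98.2 and 225. Of the pooled-only sites, 84 (4.11%) were above the conservative median. Among the 1000 strongest pooled peaks 20 were pooled-only, among the 2000 strongest 83, and among the 1812 peaks ranked after 4000 they made up 1437 (79.3%). The rule acts on these ranks, so the values describe the sites and were not tested.

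**Figure D1:**
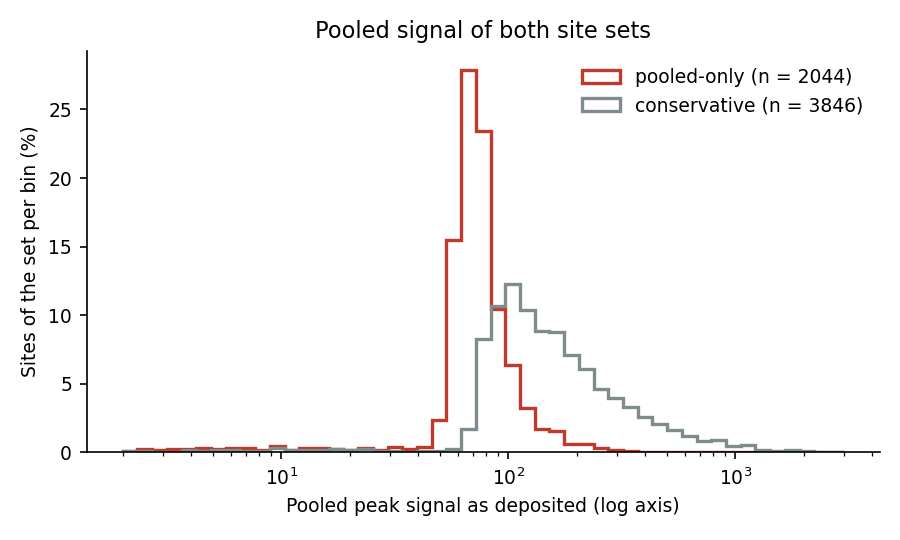
Pooled peak signal on the authors' scale (log axis) against the share of each set per bin, for 2044 pooled-only and 3846 conservative sites. The pooled-only sites gather around their median of 71.4, and the conservative sites spread to higher values around a median of 139.

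At the threshold the values were continuous. The weakest pooled-only sites by IDR, nearest the starts of lncRNA:CR45938, cindr and vg, had an IDR of 0.00998, 0.00996 and 0.00995 and signals of 59.9, 65.3 and 60.8. The candidates just past the threshold, nearest trr, Adck5 and pico, had an IDR of 0.0100038, 0.0100127 and 0.0100216 and signals of 76.0, 53.4 and 58.1. By position, the closest pooled-only peak lay 22 bp from a conservative peak and 9 lay within 100 bp of one, while the smallest overlap among the 3768 pooled peaks left out was 9 bp.

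A small group of 82 pooled-only sites had signals under 20. Of these, 81 overlapped a stronger pooled peak, which was itself pooled-only in all 81 cases, so they are second summits beside other members. In all, 106 pooled-only sites (5.19%) overlapped a stronger pooled peak, against 116 conservative sites (3.02%) that overlapped a stronger conservative one. Such sites share their sequence and their reads.

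Nearly all pooled-only sites were missing from at least 1 replicate list. A pooled-only site overlapped a peak in the thresholded list of replicate 2 alone in 350 cases (17.1%), of replicate 1 alone in 737 (36.1%), of both in 16 (0.783%) and of neither in 941 (46.0%). Of the conservative sites, 571 (14.8%) were in the list of replicate 2 alone, 442 (11.5%) in that of replicate 1 alone, 2432 (63.2%) in both and 401 (10.4%) in neither. Among the weak conservative sites, meaning the lowest 33.3% of that set by signal with a median of 87.8, 16.9% of sites were in both lists and 30.3% in neither. The conservative set was built on agreement between replicates, so the rule fixes most of this contrast and no test is given.

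**Figure D2:**
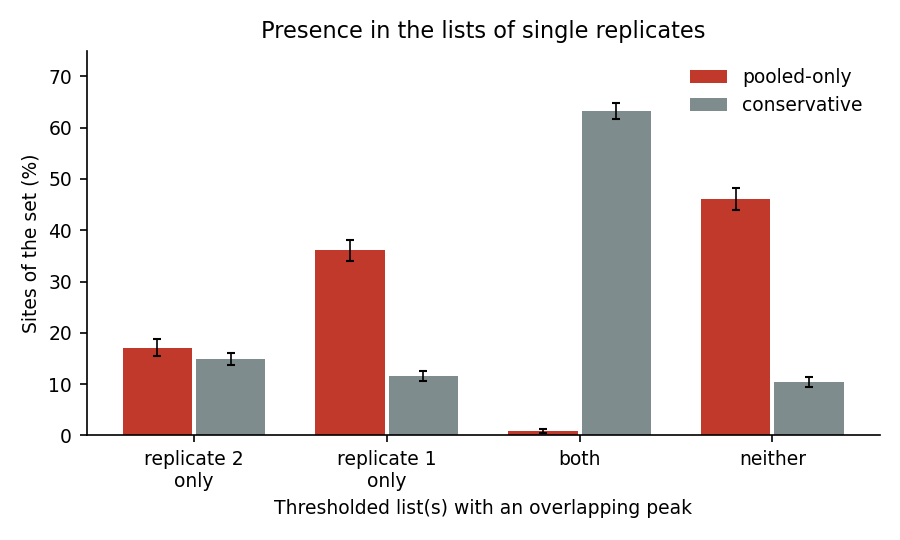
Share of pooled-only and of conservative sites (%) by the thresholded replicate lists that hold an overlapping peak; lines are Wilson 95% intervals, which cover counting error only. Pooled-only sites are in both lists in 0.783% of cases, against 63.2% of conservative sites.

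The candidate lists of the replicates, which hold 93332 peaks for replicate 1 and 84325 for replicate 2 before thresholding, show how far the replicates differed. A candidate summit within 100 bp was present in both replicates for 1220 pooled-only sites (59.7%) and for 93.7% of conservative sites. Ranks exist only for sites with such a candidate. Of the 350 sites in the replicate 2 list alone, 336 had one in replicate 2, with a median rank of 2892, and 260 had one in replicate 1, with a median of 11932. Of the 737 in the replicate 1 list alone, 330 (44.8%) had one in replicate 2, with a median rank of 19742, and 711 had one in replicate 1, with a median of 2628. Of the 941 sites in neither list, 703 had one in replicate 2 and 833 in replicate 1, at median ranks of 6940 and 7081.

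In the list that compared the replicates, 1595 pooled-only sites (78.0%) had the identical interval as a candidate, and 0 of these passed the IDR threshold there, which the rule sets. Their median IDR between replicates was 0.0738, with quartiles of 0.0213 and 0.679. The median was 0.0352 for sites in neither list and 0.0491 for those in the replicate 2 list alone. It was 0.685 for those in the replicate 1 list alone and 0.669 for the 16 in both lists. The sites in neither list were thus the closest to passing of these groups.

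**Figure D3:**
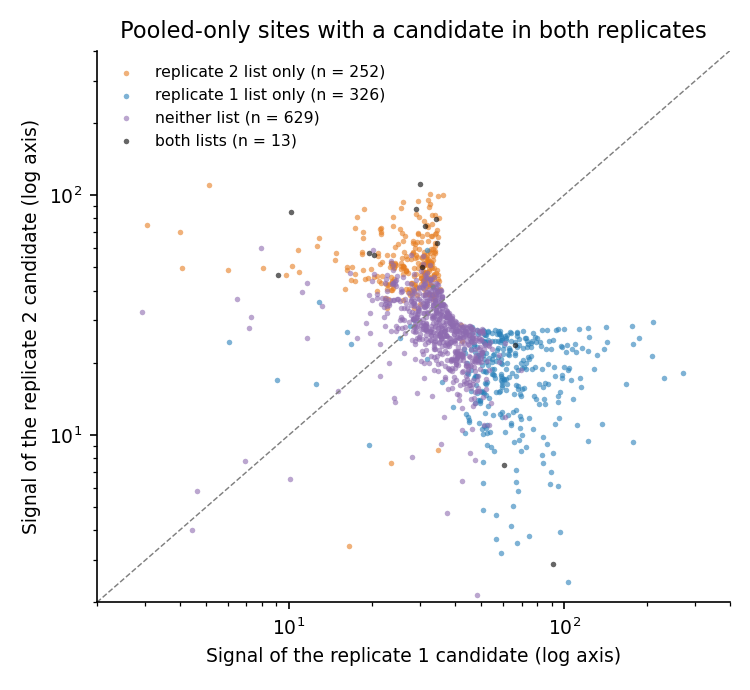
Signal of the nearest candidate within 100 bp in replicate 1 (x axis) and in replicate 2 (y axis), both log axes on the authors' scale, for the 1220 pooled-only sites with a candidate in both; the other 824 are not shown and the dashed line marks equal signal. The empty upper right corner is set by the rule, which leaves out sites that are strong in both replicates.

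The strongest pooled-only sites were strong in 1 replicate and mostly missing from the other. All 15 sites of highest signal were in 1 replicate list alone, 4 in that of replicate 2 and 11 in that of replicate 1. For 12 of these 15, the other replicate had no overlapping peak even among its unthresholded candidates. Among the 100 strongest, 18 were in the replicate 2 list alone, 77 in the replicate 1 list alone, 4 in both and 1 in neither. The rule leaves out sites that are strong in both replicates, so it fixes much of this pattern and no test is given.

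The strongest site of all, 111 bp upstream of the start of CG7841 (chr3L:15508274-15508486, pooled signal 492), reached 324 and rank 151 among the replicate 1 peaks and had no candidate in replicate 2. The next, in an intergenic stretch 6852 bp from the nearest start, that of CG4702 (chr3R:12121276-12121469, 383), reached 261 and rank 239 among the replicate 2 peaks and had no candidate in replicate 1. A further replicate 2 site lay 196 bp upstream of the nearest start of Dys (chr3R:19460782-19460951, 303), the fly dystrophin gene, with a signal of 172 in that replicate and no candidate in the other.

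Both of the strongest sites on the small chromosome 4 came from replicate 1. One lay in the 3' UTR of an annotated gene, nearest the start of Cals (chr4:1113241-1113439, 362), which codes for calsyntenin, a cadherin-domain protein, and had a signal of 196 in replicate 1. The other lay 3899 bp upstream of zfh2 (chr4:497837-497991, 309), a zinc finger and homeodomain gene, with a signal of 254 in replicate 1. Neither had a candidate in replicate 2.

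Other strong sites of replicate 1 lay close to gene starts. The summits lay 28 bp upstream of the start of yps (chr3L:12125108-12125263, signal 261), which codes for the cold-shock domain protein Ypsilon Schachtel, and 124 bp upstream of that of aralar1 (chr3R:30450447-30450592, 252), a mitochondrial carrier. Summits lay 109, 96 and 8 bp upstream of CG7668, EndoGI and CG5335, where pooled signals were 297, 236 and 291. At CG5335 replicate 2 had a weak candidate with a signal of 18.1, against 271 in replicate 1, and at aralar1 the values were 17.2 and 231. The intronic sites nearest CG32425, bun and lncRNA:CR44156 lay 1378, 359 and 4217 bp upstream of a start, with pooled signals of 321, 257 and 250. The remaining sites of the 15 came from replicate 2, in an intron 778 bp downstream of a start of ATP8B (253) and 4887 bp from lncRNA:CR44800 (239).

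The 16 sites in both lists had a median pooled signal of 105. An overlap of 1 bp was enough to place a site in a list. The 3 strongest lay nearest the starts of Rip11, Tdrd3 and CG12316, with pooled signals of 200.7, 176 and 171, and were added after the values were seen. The candidates nearest their summits gave 91.2, 29.8 and 10.2 in replicate 1 and 2.89, 111 and 85.4 in replicate 2. The lower value of each pair ranked 83630, 10899 and 63690 in its replicate, while the thresholded lists hold 3992 and 3508 peaks for replicates 1 and 2. A candidate nearest the summit thus need not be the overlapping peak of the list, and the signals of those list peaks were not compared. The 3 weakest lay nearest the starts of nrv1, of an annotated non-coding gene on 3L and of Ada2b, with pooled signals of 39.3, 54.5 and 70.9. The site at Ada2b, a subunit of histone acetyltransferase complexes, gave 7.49 in replicate 2 and 60.5 in replicate 1 at the candidates nearest its summit. The 3 strongest sites in neither list lay 68 bp upstream of gus, 156 bp upstream of mRpL34 and 4439 bp from the nearest start of sky. Their pooled signals were 190, 133 and 112, while the nearest candidates in replicate 1 had signals of 5.24, 30.8 and 37.1 and replicate 2 had none within 100 bp.

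Pooled-only sites lay within 1000 bp of a transcription start about as often as conservative sites. The share was 1079 of 2044 (52.8%, Wilson 95% interval 50.6 to 54.9%) for pooled-only sites and 2063 of 3846 (53.6%, 52.1 to 55.2%) for conservative sites, a difference of -0.85 points (Newcombe 95% interval -3.53 to 1.82; Fisher's exact test, two-sided, p = 0.546). Against the weak conservative sites, where 47.3% of summits were near a start, the direction turned, to a log2 ratio of 0.16 (Fisher's exact test, p = 0.00245). Here and in the following tests the units are sites in the same 2 libraries and not replicates, so a p-value speaks for this pair of site lists and not for another pair of libraries.

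Near starts, the summits of pooled-only sites were less often upstream. Of the 1079 near a start, 634 (58.8%) lay upstream, against 1566 of 2063 (75.9%) conservative ones, a difference of -17.2 points (-20.6 to -13.7; Fisher's exact test, p = 9.71e-23). Their median position was -49 bp with quartiles of -164 and 106 bp, against -116 bp with quartiles of -246 and -8.5 bp for conservative sites. They belonged to 962 genes, and for 178 of the 1079 (16.5%) the same gene also had a conservative summit near a start. This position was compared after the annotation classes had been seen.

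Exons of the transcribed start region and of coding sequence held more of the pooled-only summits. The 5' UTRs held 263 (12.9%), against 235 (6.11%) of the conservative summits, with a log2 ratio of 1.07 (Fisher's exact test with Benjamini-Hochberg adjustment over 6 classes, adjusted p = 1.50e-17). Coding exons held 84 (4.11%) against 27 (0.702%), with a log2 ratio of 2.55 (Fisher's exact test, adjusted p = 4.57e-18). Intergenic sequence held 625 (30.6%) against 1471 (38.2%), with a log2 ratio of -0.32 (Fisher's exact test, adjusted p = 8.99e-09). Introns held 47.8% against 50.7% (adjusted p = 0.0526), 3' UTRs 2.05% against 1.46% (adjusted p = 0.129) and non-coding exons 2.59% against 2.78% (adjusted p = 0.736), and none of these 3 passed Fisher's exact test. Introns passed when an overlap was counted from 50% of the peak (Fisher's exact test, adjusted p = 0.0372). The same 3 classes passed against the weak conservative sites (Fisher's exact test), with log2 ratios of 1.30 for 5' UTRs, 1.63 for coding exons and -0.29 for intergenic sequence.

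The annotation depended on which replicate had called the site. Sites in the replicate 2 list alone were intergenic in 47.4% of cases and in 5' UTRs in 5.43%, against 25.6% and 18.6% of sites in the replicate 1 list alone. The log2 ratios were 0.89 and -1.78, with adjusted p-values of 1.13e-11 and 2.77e-09 over 6 classes (Fisher's exact test; this split by class was made after the data were seen). The share near a start was 54.3% against 56.6%, with a difference of -2.30 points (-8.61 to 3.99; Fisher's exact test, p = 0.513). Sites in neither list held the most coding-exon summits, 64 of 941 (6.80%).

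When each replicate list was taken by itself, the intergenic share turned round for replicate 2. Among sites in the replicate 2 list, 5' UTRs held 5.46% of pooled-only and 6.13% of conservative summits (adjusted p = 0.727), and intergenic sequence held 46.4% against 39.0%, with a log2 ratio of 0.25 (Fisher's exact test, adjusted p = 0.0394). Introns held 43.7% against 50.6% there, with a log2 ratio of -0.21 (Fisher's exact test, adjusted p = 0.0443). Among sites in the replicate 1 list, 5' UTRs held 18.3% against 6.19%, and intergenic sequence held 25.6% against 37.6%, with log2 ratios of 1.57 and -0.55 (Fisher's exact test, adjusted p = 2.14e-21 and 1.36e-09). Among sites in neither list, 5' UTRs held 11.3% against 5.24% and intergenic sequence 28.3% against 38.9% (Fisher's exact test, adjusted p = 0.00144 and 0.000895). The excess in 5' UTRs thus passed in the replicate 1 list and in neither list, and did not pass in the replicate 2 list; the difference between these effects was not tested. Coding exons did not pass in the replicate 2 list either, with a log2 ratio of 0.58 (Fisher's exact test, adjusted p = 0.727).

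**Figure D4:**
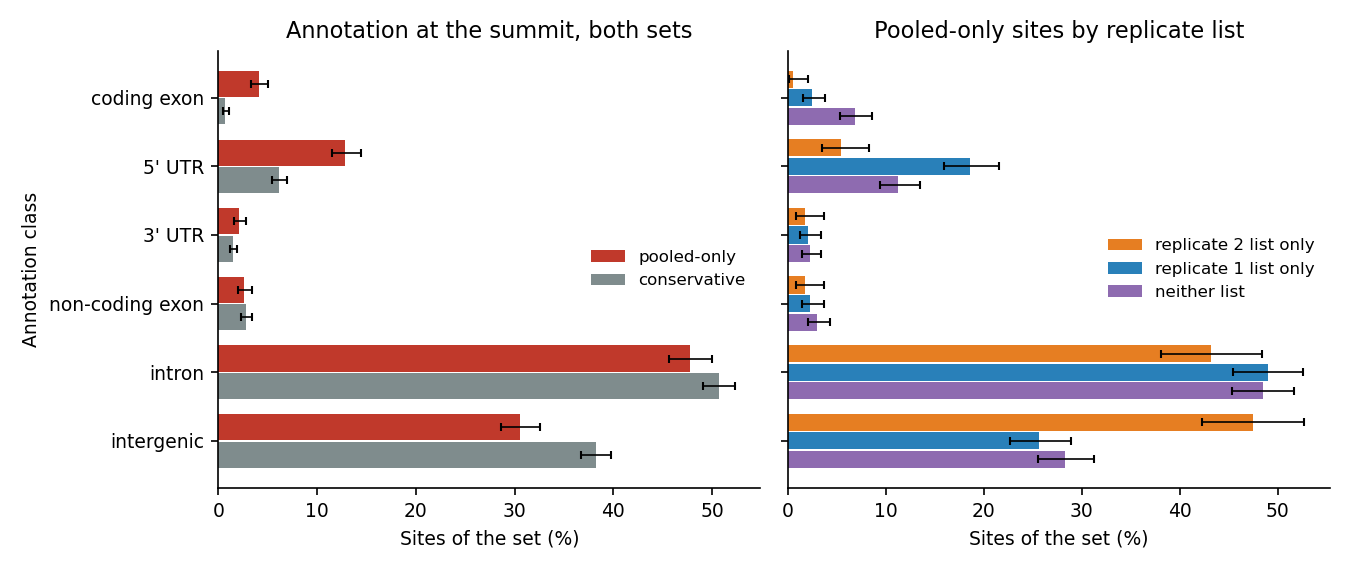
Share of summits (%) in each annotation class for pooled-only and conservative sites (left) and for pooled-only sites by replicate list (right), with Wilson 95% intervals. The 5' UTRs held 12.9% of pooled-only summits against 6.11% of conservative ones, and 5.43% of sites in the replicate 2 list alone against 18.6% of those in the replicate 1 list alone.

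Pooled-only sites took a smaller share on the X chromosome than conservative sites did. There were 296 on X, or 12.6 per Mb (exact Poisson 95% interval 11.2 to 14.1), against 785 conservative sites, or 33.3 per Mb (31.1 to 35.8). X held 14.5% of the pooled-only and 20.4% of the conservative sites, with a log2 ratio of -0.50 (Fisher's exact test, adjusted p over 6 arms = 8.81e-08). The arms 2L, 2R, 3L, 3R and 4 carried 16.4, 16.8, 16.1, 14.7 and 10.4 pooled-only sites per Mb. Arm 2R held 20.8% against 17.9% (Fisher's exact test, adjusted p = 0.0128), and 2L, 3L and 3R did not pass. The 2R call was lost in the stronger 50% of sites and against the weak conservative sites (Fisher's exact test, adjusted p = 0.126 and 0.195). Without replicate 1, that is among sites in the replicate 2 list, the log2 ratio of 2R was -0.22 (Fisher's exact test, adjusted p = 0.407). That of X was -0.29 there and did not pass (Fisher's exact test, adjusted p = 0.175), while that of 3R was 0.50 and did (adjusted p = 0.000997).

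Chromosome 4 held 14 pooled-only sites and 3 conservative ones, or 0.685% against 0.0780% of the sites (10.4 and 2.23 per Mb; Fisher's exact test, adjusted p = 0.000227). Of the 14, 0 were in the replicate 2 list, 9 were in the replicate 1 list and 5 in neither. The unthresholded candidates on this chromosome numbered 33 in replicate 2 and 1074 in replicate 1. The part of this gap in the chromosome 4 result was not tested.

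The distance from a pooled-only summit to the nearest conservative one had a median of 7373 bp, with quartiles of 2615 and 19955 bp. From a conservative summit to the next conservative one the median was 5031 bp, with quartiles of 1552 and 13385 bp. The rule removes pooled peaks that overlap a conservative one, so these distances were not tested. Within 1000 bp there were 207 (10.1%), and 848 (41.5%) lay over 10000 bp away.

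Summits of pooled-only sites were less AT-rich than those of conservative sites. The G+C content within 50 bp of the summit averaged 39.7 ± 10.8% (SD, n = 2044 sites), against 32.6 ± 9.49% (SD, n = 3846 sites). All windows of this width on the 6 arms averaged 42.2%, and windows 300 bp from pooled-only summits averaged 42.1%. The share of summits with a G+C content under 35% was 744 of 2044 (36.4%, Wilson 95% interval 34.3 to 38.5%), against 2603 of 3846 (67.7%, 66.2 to 69.1%), a difference of -31.3 points (-33.8 to -28.7) and a log2 ratio of -0.89 (Fisher's exact test, two-sided, p = 3.55e-118). The weak conservative sites had 57.1%, and the difference from them was -20.7 points (-24.1 to -17.3; Fisher's exact test, p = 1.87e-31).

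The difference in base composition was present within the annotation classes too. In introns, 40.6% of pooled-only and 71.4% of conservative summits were AT-rich by this measure, in intergenic sequence 44.8% and 67.7%, and in 5' UTRs 13.7% and 46.0% (Fisher's exact tests, p = 6.33e-58, 1.80e-22 and 1.47e-15; 6 classes compared, unadjusted). Coding exons held 0 such summits in either set, of 84 and 27.

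Base composition also divided the pooled-only sites by replicate. AT-rich summits made up 211 of 350 sites (60.3%) in the replicate 2 list alone, against 172 of 737 (23.3%) in the replicate 1 list alone, a difference of 36.9 points (30.8 to 42.7) and a log2 ratio of 1.37 (Fisher's exact test, p = 4.30e-32). Mean G+C was 34.4 ± 9.65% and 42.1 ± 9.97% (SD over sites), with 40.0 ± 11.2% in the sites in neither list. Conservative sites split the same way, at 64.1% in the replicate 2 list alone against 50.7% in the replicate 1 list alone, a difference of 13.4 points (7.29 to 19.4; Fisher's exact test, p = 2.18e-05). Taken whole, the replicate 2 list had 70.1% AT-rich summits and the replicate 1 list had 55.3%.

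**Figure D5:**
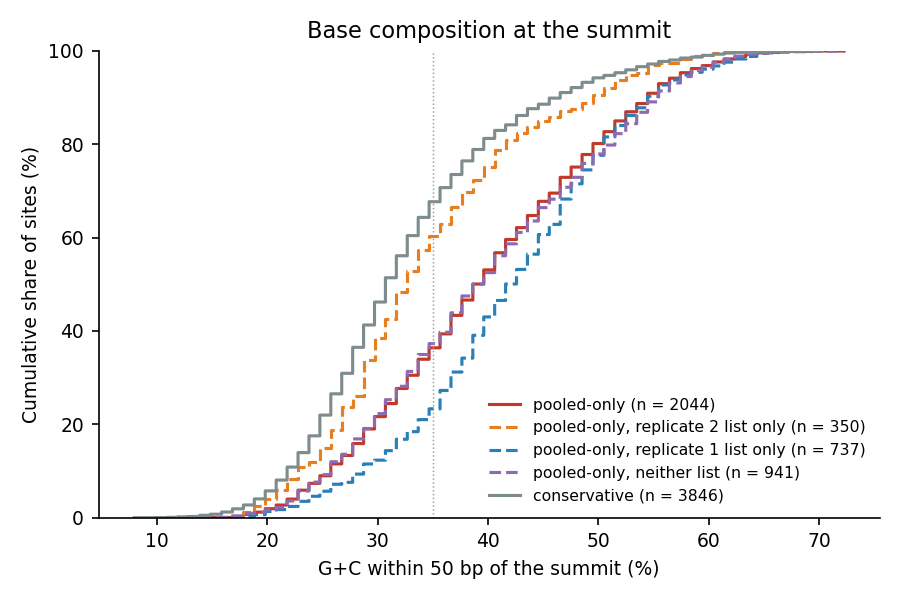
Cumulative share of sites (%) by the G+C content within 50 bp of the summit, for pooled-only sites, the same sites by replicate list, and conservative sites; the dotted line marks 35%. At that line the curve of sites in the replicate 2 list alone (60.3%) lies near the conservative sites (67.7%), and that of sites in the replicate 1 list alone (23.3%) lies lowest.

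The difference in base composition was present in each replicate list, with a smaller value for replicate 2; the gap between the values was not tested. Among sites in the replicate 2 list, 60.4% of pooled-only and 71.8% of conservative summits were AT-rich, a difference of -11.4 points (-16.8 to -6.30; Fisher's exact test, p = 1.12e-05). Among sites in the replicate 1 list the shares were 24.2% and 70.1%, a difference of -45.9 points (-49.3 to -42.3; Fisher's exact test, p = 4.85e-116).

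CAGATG, the E-box that Tal1 and its partners prefer, was rare at pooled-only summits. It occurred in 65 of 2044 windows (3.18%, Wilson 95% interval 2.50 to 4.03%), against 108 of 3846 conservative windows (2.81%), a difference of 0.37 points (-0.51 to 1.35; Fisher's exact test, adjusted p over 18 motifs = 0.502). Windows 300 bp from the same summits held it in 4.16% of cases (exact sign test, adjusted p = 0.360), and all windows of the arms in 4.59%. In the sites of the replicate 2 list alone it occurred at 5.14%, against 2.04% in those of the replicate 1 list alone, a comparison made after the data were seen (difference 3.11 points, 0.84 to 6.06; Fisher's exact test, adjusted p over 18 motifs = 0.0354).

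Of the 10 E-box classes, 4 were more frequent at pooled-only than at conservative summits. Of all hexamers, 616 (29.6%) were more frequent there too, with the adjustment made over all of them. Mean G+C was also higher at pooled-only summits (39.7% against 32.6%), and its part in these 4 calls was not tested. CAAGTG occurred in 7.83% against 5.25% of windows, CACATG in 4.35% against 2.96%, CACCTG in 3.28% against 2.08% and CAGCTG in 4.11% against 2.89% (log2 ratios of 0.58, 0.55, 0.66 and 0.51; Fisher's exact test, adjusted p = 0.000578, 0.0174, 0.0174 and 0.0285). None of the 10 classes differed between pooled-only summits and the windows 300 bp away at an adjusted p under 0.05. None of them passed against the weak conservative sites either. None of the 4 passed in the stronger 50% of pooled-only sites (Fisher's exact test, adjusted p between 0.0631 and 0.262). With 25 bases on either side of the summit CACATG alone of the 4 passed, and with 100 bases CAAGTG and CACCTG passed. Without replicate 1 these 4 classes did not pass (Fisher's exact test, adjusted p between 0.579 and 0.839), and without replicate 2 CACCTG did not (adjusted p = 0.0620). Other classes passed in single alternatives only. CAGATG was more frequent at pooled-only summits without replicate 1, with a log2 ratio of 1.15 (Fisher's exact test, adjusted p = 0.0292). CAACTG was more frequent without replicate 2, with a log2 ratio of 0.81 (Fisher's exact test, adjusted p = 0.00267). CACGTG was more frequent with 25 bases on either side, with a log2 ratio of 1.91 (Fisher's exact test, adjusted p = 0.0195).

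Among the other 8 motifs, the GATA motif and both TTAAAA and TATAAA were less frequent, GAGAG and CGATA were more frequent, and 3 did not pass. TTAAAA occurred at 20.8% of pooled-only and 35.4% of conservative summits, and TATAAA, the core of the TATA box, at 15.2% and 24.5% (log2 ratios of -0.77 and -0.69; Fisher's exact test, adjusted p = 6.31e-31 and 1.84e-16). GAGAG occurred at 13.8% and 8.48% (log2 ratio 0.70; Fisher's exact test, adjusted p = 2.07e-09). CGATA, part of the DNA replication-related element bound by Dref, occurred at 15.6% and 12.3% (log2 ratio 0.34; Fisher's exact test, adjusted p = 0.00201). The GATA motif occurred at 19.5% and 22.4% (log2 ratio -0.20; Fisher's exact test, adjusted p = 0.0209). The full element TATCGATA was at 0.783% and 0.988%, and GGTCACAC, bound by the promoter factor M1BP, was at 0.881% and 0.546%. Neither passed, at adjusted p-values of 0.518 and 0.184. CAGGTA, which the early factor Zelda binds, was at 2.30% and 1.51% (Fisher's exact test, adjusted p = 0.0684). It passed against the weak conservative sites, in the stronger 50% of pooled-only sites and without replicate 2, with log2 ratios of 1.07, 0.86 and 0.87 (Fisher's exact test, adjusted p = 0.0410, 0.0390 and 0.0458). GGTCACAC passed without replicate 2, with a log2 ratio of 1.71 (Fisher's exact test, adjusted p = 0.0164). CGATA and TATAAA were also more frequent at pooled-only summits than 300 bp away, where they occurred in 11.5% and 11.4% of windows (exact sign test, adjusted p = 0.00223 and 0.00545). GAGAG was at 13.7% there. Without replicate 1, GAGAG had a log2 ratio of -0.06 and TATAAA of -0.39 between the sets, and neither passed (Fisher's exact test, adjusted p = 0.972 and 0.0552). CGATA did not pass without replicate 2 (Fisher's exact test, adjusted p = 0.0620), and the GATA motif did not pass without either replicate (adjusted p = 0.579 without replicate 1 and 0.0563 without replicate 2), in the narrower or the wider window, in the stronger 50% of sites or against the weak conservative sites.

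Counts of all hexamers followed base composition. Of all hexamers, each counted with its reverse complement, 616 (29.6%) were more and 267 (12.8%) less frequent at pooled-only than at conservative summits (Fisher's exact test, adjusted p under 0.05). The 36 hexamers without G or C were all less frequent, and of the 36 without A or T 25 were more frequent. CCGCTC had the lowest p among the higher ones, at 4.40% against 0.936% of windows. GCAAAC was at 10.4% against 5.28%, and ACACAC at 8.32% against 3.85% (Fisher's exact test, adjusted p = 3.40e-15, 1.13e-10 and 1.81e-10). Against the weak conservative sites 72 were higher and 71 lower. Without replicate 1, among sites in the replicate 2 list, 0 hexamers passed in either direction, with a lowest adjusted p of 0.147, while 106 were higher and 42 lower at an unadjusted p under 0.05. Without replicate 2, among sites in the replicate 1 list, 586 were higher and 283 lower.

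The pooled-only sites of the replicates held different hexamers, in a comparison added after the data were seen. Of all hexamers, 80 (3.85%) were more and 69 (3.32%) less frequent in the sites of the replicate 2 list alone than in those of the replicate 1 list alone. TATTAA occurred at 22.6% against 8.28%, and AACTTA at 13.4% against 4.07% (log2 ratios of 1.44 and 1.71; Fisher's exact test, adjusted p = 5.05e-07 and 4.47e-05). GTAAAC, letters found in the known binding sequence of forkhead proteins, occurred at 2.29% against 12.1%, and CACACA at 4.57% against 15.3% (log2 ratios of -2.32 and -1.71; Fisher's exact test, adjusted p = 1.02e-05 and 4.39e-05). GAGCGA occurred at 1.14% against 8.55% (log2 ratio -2.75; Fisher's exact test, adjusted p = 9.49e-05). GTAAAC was at 5.74% of the sites in neither list and 5.23% of conservative sites.

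In the conservative set the same split gave 0 hexamers past the adjusted threshold in either direction, and 132 at an unadjusted p under 0.05. GTAAAC was at 4.90% of conservative sites in the replicate 2 list alone and 6.33% of those in the replicate 1 list alone, with a log2 ratio of -0.37 (Fisher's exact test, adjusted p = 0.961). Whether that difference is smaller than among pooled-only sites was not tested.

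The strongest printable windows with these letters are given, first 3 from the replicate 2 list alone with TATTAA in capitals and then 3 from the replicate 1 list alone with GTAAAC in capitals, both on either strand.

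ATP8B, chr3R:12079100-12079200: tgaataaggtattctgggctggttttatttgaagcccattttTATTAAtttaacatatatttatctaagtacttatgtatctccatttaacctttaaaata
capu, chr2L:3896901-3897001: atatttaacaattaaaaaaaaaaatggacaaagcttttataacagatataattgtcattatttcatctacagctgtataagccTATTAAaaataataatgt
CG43373, chr3L:16534028-16534128: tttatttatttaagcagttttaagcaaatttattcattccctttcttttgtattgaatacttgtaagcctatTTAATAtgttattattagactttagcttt
lncRNA:CR44156, chr3R:4665106-4665206: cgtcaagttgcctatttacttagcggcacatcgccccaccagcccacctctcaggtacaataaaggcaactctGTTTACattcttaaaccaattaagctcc
lncRNA:CR44999, chrX:3381851-3381951: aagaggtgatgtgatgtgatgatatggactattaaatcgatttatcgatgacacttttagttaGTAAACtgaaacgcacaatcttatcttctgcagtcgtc
CG31883, chr2L:9525842-9525942: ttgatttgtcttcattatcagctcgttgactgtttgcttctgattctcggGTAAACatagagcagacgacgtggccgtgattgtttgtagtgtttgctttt

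The first 3 windows had a G+C content of 24.8%, 19.8% and 21.8%, and the others had 46.5%, 35.6% and 41.6%. Both groups were picked for their letters and serve as examples.

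Pooled-only sites reached many genes without a conservative site. A gene was counted when a summit lay between its end and 2000 bp upstream of its start, so 1 summit can count for several genes. Of 18164 genes, 2127 had a pooled-only site and 3686 (20.3%) had a conservative site. Genes with a pooled-only site and no conservative one numbered 1307 (7.2%), which is the background for the lists below. Of the 2127, 820 (38.6%) had both kinds and 1670 had exactly 1 pooled-only site. The lists were read by their counts alone, and the genes named are those with the highest signal. Unless stated otherwise, a list count is of genes with a pooled-only site alone and leaves out genes with both kinds. A summit counted for a listed gene can lie nearest the start of another gene.

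The genes with most pooled-only summits were tai and Tlk, each with 8. The gene tai codes for a coactivator of the ecdysone receptor and also had 5 conservative summits over 83434 bp, and Tlk codes for a kinase and had 9 over 69764 bp. Long genes gather summits by length. HLH3B itself had 0 pooled-only and 0 conservative sites. Its nearest pooled-only sites lay 46.6 kb to the left of its start, in an intron nearest a start of the kinase gene sgg (chrX:2634955-2635290, signal 62.5, in neither list), and 50.6 kb to the right, 109 bp upstream of CG2712 (chrX:2732192-2732527, 66.9, in the replicate 2 list).

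Among 92 cytosolic ribosomal protein genes, 13 (14.1%, Wilson 95% interval 8.45 to 22.7%) had a pooled-only site alone, and 55 (59.8%) had a conservative site, so that 68 had either. RpS3A on chromosome 4 (chr4:67085-67420, signal 169), RpS27A (165) and RpL11 (120) had summits 46, 78 and 27 bp upstream of their starts. The summit at RpS27A lay as far from the start of its neighbour Ip259. Mitochondrial ribosomal protein genes had 8 of 73 (11.0%), led by mRpS6 with a summit 82 bp upstream (154), then mRpS26 (87.0) and mRpS33 (77.1). Translation factors and tRNA synthetases had 8 of 87 (9.20%), led by the elongation factor eEF2 with a summit 14 bp from its start and a signal of 200.

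Small nucleolar and spliceosomal RNA genes had 47 of 290 (16.2%, 12.4 to 20.9%) with a pooled-only site alone, and 26.6% had a conservative site. Their leading entries were snoRNA:CD-24, snoRNA:abba-a and snoRNA:Psi28S-2444, and the summits counted for the first and last of these were those at RpS3A and RpL11. Neighbouring small RNA genes share summits, so this count holds fewer sites than genes. Of 295 tRNA genes 12 (4.07%) had a pooled-only site alone. So did 14 of 260 microRNA genes (5.38%), led by mir-14, mir-4962 and mir-8, and 117 of 2447 long non-coding RNA genes (4.78%). The last list was led by lncRNA:CR45588 with a signal of 207. The summits counted for mir-14 and mir-8 lay nearest the starts of lncRNA:CR43651 and lncRNA:CR43650. Proteasome genes had 4 of 48 (8.33%), led by Rpn13 (109), and respiratory chain and ATP synthase genes 6 of 87 (6.90%), led by COX7B (99.3). The summit counted for COX7B lay 133 bp upstream of its start and 127 bp upstream of that of Sec3.

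Partners and pathways tied to Tal1-type proteins were short lists, in which 0 to 2 genes each had a pooled-only site alone. Of 14 partner genes, 2 had a pooled-only site alone and 5 had a conservative site, 3 of these with both kinds. The 2 were the GATA factor gene GATAd, with an intronic summit 1220 bp downstream of its start (82.0), and the LIM-homeodomain gene tup, 301 bp upstream (61.6). Of 25 blood cell genes, 3 had both kinds of site and 2 had a pooled-only site alone. The 2 were Col4a1 (63.0), a collagen gene made by fly blood cells, and dom (57.4), which codes for a chromatin remodeller. The summit counted for Col4a1 lay 6704 bp downstream of its start and nearest the start of CG14042. Of 38 bHLH genes, 5 had both kinds of site and 1 had a pooled-only site alone, nau (60.7), the fly relative of the MyoD genes. That summit lay 4220 bp downstream of the start of nau and nearest the start of CG10300. Of 22 Notch pathway genes, 5 had both kinds of site and 1 had a pooled-only site alone, kuz (93.2), which codes for a protease that cleaves Notch. That summit lay 1090 bp upstream of the start of kuz and 279 bp downstream of that of B4. No Hox gene of 8, no Enhancer of split gene of 11 and no pan-neuronal gene of 19 had a pooled-only site alone. Both kinds of site were present at 3 Hox genes, 1 Enhancer of split gene and 3 pan-neuronal genes.

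The neuroblast, glial, septate junction, tracheal, muscle and heart lists gave 1 to 3 genes each. Neuroblast genes had 3 of 22, with pros, the gene of a homeodomain factor of neural differentiation, at a signal of 157, then klu (63.5) and Syp (40.6). That pros summit lay in a 3' UTR, 20230 bp downstream of the pros start and nearest the start of mRpL40. The summit counted for Syp lay 6930 bp downstream of its start and nearest the start of CG31195. Glial genes had 3 of 21, namely nrv2 (69.5), gem (60.1) and Ntan1 (112). Both gem and Ntan1 were on the list although their tie to glia is uncertain. Septate junction genes had 3 of 19, with the claudin gene pck (85.5), Lac (80.1) and nrv2. Tracheal genes had 3 of 16, with knrl (108), pio (91.4) and uif (62.0). That summit of pio lay 6081 bp downstream of its start and nearest the start of CG13587. Muscle genes had 2 of 32, blow (63.1) and nau, and heart genes had 1 of 21, tup.

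Among regulators, ecdysone response genes had 3 of 22, with Eip93F (85.0), usp (77.9), which codes for the partner of the ecdysone receptor, and crol (75.4). Polycomb-group genes had 2 of 19, Su(z)2 (84.5) and Sce (59.3). Insulator and promoter factors had 4 of 20, led by Trf2, the gene of a relative of the TATA-binding protein (177), Dref (110), whose site lay 73 bp upstream of its start and 11 bp from that of RpL13, and insv (65.5). Odorant and gustatory receptor genes had 3 of 120 (2.50%), led by Gr97a (86.5), and cuticle, Tweedle and Osiris genes had 2 of 143 (1.40%), Cpr100A (98.1) and Cpr67Fb (74.0). The summit counted for Gr97a lay 1351 bp upstream of its start and nearest the start of CG5521. The lists differ in gene length, with medians between 73 and 31754 bp, and a long gene has more room for a site, so shares were not compared between lists.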

How the data were processed

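ChIP-seq peak lists of 2 biological replicates of 1 group were used. Per the labels, the deposited lists are on assembly dm6 and derive from alignments of both replicates with a shared further file; the peak caller and aligner were not given in the sources read. The authors deposited, for each peak, a score (a rescaled IDR; 830 was the lowest in either set, 1000 the highest), a signal and a −log10 IDR score in ranked lists. The signal was made by the authors' peak caller, on a scale that the deposited notes do not state, and served as a description. No list holds read counts, so depth is unknown and intervals cover the counting of sites only.

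Genes and starts came from Ensembl release 115 (BDGP 6.54), 18164 genes without transposable elements. A summit was given 1 class, in the order coding exon, 5' UTR, 3' UTR, non-coding exon, intron, intergenic. Motifs and hexamers were searched on both strands of the summit base and 50 bp on either side. Shares were compared with Fisher's exact test, two-sided, with Wilson and Newcombe 95% intervals and Benjamini-Hochberg adjustment within each family. The hexamer test was tried on simulated windows with the same base composition in both sets. That trial does not cover sets that differ in composition, as those compared here do. For list genes, 325 of 338 symbols matched, 10 of them through an older symbol.

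The members, the 27 gene lists and the tests were chosen with earlier results of these data known. The genes named are those nearest the 15 strongest sites, up to 3 per list by signal, those nearest the 3 weakest sites in both and the 3 strongest in neither replicate list, the genes with most summits, and HLH3B. Windows printed are the 6 strongest and 2 each of lowest and highest G+C, leaving out 1 arm and windows that touch a UTR. Alternatives covered the overlap rule, the stronger 50% of sites, each replicate alone, the weakest 33.3% of the conservative set, window widths and gene assignment. Software was scipy 1.17.1 and numpy 2.4.6 under Python 3.11.15, with pandas 2.3.3, and matplotlib 3.10.9 for figures.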

Additional observations from a re-analysis of the deposited data

Results flagged for a closer look

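A signal was present among peaks that neither series-level set holds. In the candidate list behind the pooled set, 5936 candidates on the arms had an IDR under 0.01. Among them, 124 overlapped no peak of the pooled thresholded list used here and no conservative site. The signals of the 124 had a median of 110 and a highest value of 2484. Of the 124, 85 lay on 3R and 27 on 2L, and 0 overlapped a peak in either replicate's thresholded list. In the list that compared the replicates, 67 overlapped a candidate that also passed, and 57 did not. The strongest of the 57 lay nearest the starts of Dph4 (signal 199), lncRNA:CR44034 (151) and spen (134). The deposited notes name 1 further file for thresholded lists that ranked lists do not name, and its part in the gap was not tested.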

How the results depend on the processing

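With sites of 1 replicate list only, the lowest and highest values were 366 and 753 pooled-only sites, 327 and 550 genes without a conservative site, 1 and 4 arms that differed, and 3 and 9 motifs that differed. They were 0 and 586 hexamers more frequent and 0 and 283 less frequent. The log2 ratios ranged from -0.17 to 1.57 for 5' UTRs, from -0.55 to 0.25 for intergenic sequence, from -0.22 to 0.31 for 2R and from -0.057 to 1.20 for GAGAG, with the values of opposite sign to the whole set among sites of the replicate 2 list. With the stronger 50% of the sites there were 1022 sites, 762 genes, 5 motifs that differed, and 289 hexamers higher and 152 lower. Their presence was 1.27% in both lists, 24.6% in neither, 51.7% in the replicate 1 list and 25.05% in that of replicate 2. Against the weakest 33.3% of the conservative set, the log2 ratio of the share near a start turned to 0.16, 5 motifs differed, and 72 hexamers were higher and 71 lower. With the narrower window 345 hexamers were higher. With an overlap counted from 50% of the peak, 2.50% of the sites were in both lists and 19.7% in the replicate 2 list. When presence needed a replicate summit within 100 bp, it was 0.245% in both lists, 48.9% in neither and 34.6% in the replicate 1 list. When it needed 50% of the peak, it was 48.9% in neither and 34.3% in the replicate 1 list. The cause of these changes was not tested. The sets limited by signal or to 1 replicate also hold fewer sites, and the part of that was not tested either. Leaving out sites that overlap a stronger pooled peak, an alternative added after seeing the data, changed no call on annotation classes, arms, motifs or AT-rich summits. With these sites left out, 595 hexamers were higher and 256 lower, and 1304 genes had a pooled-only site alone. No paired analysis was possible because the study has 1 group. Presence and its split by list could not be had without a replicate. Depth is unknown.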
